A study of Mus musculus with 6 samples.

Results

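Positional and mesenchymal transcription factors are a set of 39 listed genes of the T-box, homeobox (outside the Hox clusters), Twist, Sim, forkhead, Gata and Zic families. The list is by gene symbol and was drawn up with earlier results of these data known, so its shares of called genes are descriptions. The genes were read here in 6 RNA-seq libraries from a cell line of mouse dermal fibroblasts. Of the 39 genes, 25 had a row among the 28293 genes of the count files, and 19 of these passed the filter on low counts that left 15081 genes to test. The 14 others (Tbx5, Pitx1, Alx1, Msx1, Msx2, Dlx5, Dlx6, Meox2, Lmx1b, Six2, Sim2, Foxd1, Zic1 and Zic4) were not analysed here.

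The libraries came from 3 wild-type samples (WT) and 3 samples of the Lap2alpha knockout genotype (KO), all grown in DMEM with fetal calf serum. LAP2alpha is a nucleoplasmic protein made from the Tmpo gene that binds A-type lamins in the interior of the nucleus, and the series compares cells with and without it. The labels do not give the way the knockout was made, or whether the replicates were separate cultures or clones. The p-values below therefore measure the spread between these libraries, which may be technical, and a difference between lines or clones cannot be told apart from the loss of LAP2alpha.

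Fibroblasts of different body sites keep a record of their embryonic position in the transcription factors that they express. T-box factors bind DNA through a T-box domain and help to set limb identity and the pattern of the trunk skin, and homeobox factors such as Prrx1, En1 and the Irx and Meis proteins mark domains of limb, flank and face mesenchyme. Twist proteins are basic helix-loop-helix (bHLH) factors that pair with E proteins and hold cells in a mesenchymal state, and forkhead and Gata factors act in mesoderm and its derivatives. Many of these genes lie in broad gene-poor regions with distant enhancers, and many start at CpG-rich promoters.

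Promoter sequence is shown for 4 of the members that had a RefSeq promoter window. Gata6, Foxc2, Meox1, Tbx3 and Tbx15 had none. Meis1 had the largest fold change among members above 1 CPM in both groups, Prrx1 had the highest level in CPM, and En1 and Twist1 represent a gene that rose and a gene that fell. The bases are the annotated exon-free stretch upstream of the RefSeq start, read 5′ to 3′ on the gene's strand in GRCm38.p6, and capitals mark a CCAAT box (CCAAT), a GC box (GGGCGG) or a TATA box (TATAAA) on either strand.
Meis1, chr11:19018986-19019219, minus strand: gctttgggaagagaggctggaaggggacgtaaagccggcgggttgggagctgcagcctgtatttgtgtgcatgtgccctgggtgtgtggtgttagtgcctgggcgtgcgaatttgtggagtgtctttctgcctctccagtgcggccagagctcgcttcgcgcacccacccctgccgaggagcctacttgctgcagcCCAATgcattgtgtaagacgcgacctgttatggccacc
Prrx1, chr1:163313711-163313900, minus strand: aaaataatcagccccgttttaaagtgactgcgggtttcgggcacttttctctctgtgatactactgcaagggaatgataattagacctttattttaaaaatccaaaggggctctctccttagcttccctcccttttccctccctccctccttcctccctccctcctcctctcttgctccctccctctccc
En1, chr1:120602237-120602417, plus strand: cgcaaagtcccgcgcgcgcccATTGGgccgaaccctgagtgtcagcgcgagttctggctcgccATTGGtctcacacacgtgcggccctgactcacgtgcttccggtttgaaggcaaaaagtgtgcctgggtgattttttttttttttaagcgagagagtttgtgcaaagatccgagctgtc
Twist1, chr12:33957421-33957670, plus strand: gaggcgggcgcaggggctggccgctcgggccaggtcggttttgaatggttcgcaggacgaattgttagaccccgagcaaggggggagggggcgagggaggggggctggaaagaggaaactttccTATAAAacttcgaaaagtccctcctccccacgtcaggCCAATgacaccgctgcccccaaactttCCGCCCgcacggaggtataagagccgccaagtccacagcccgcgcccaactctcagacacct
The En1 stretch held 2 CCAAT boxes, both on the opposite strand, and the Meis1 stretch held 1. The Twist1 stretch held 1 of each of the 3 boxes, and the Prrx1 stretch held none of them. A match is a description of these letters and not a site of binding.

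RefSeq windows of 300 bases, from 250 before to 50 after a start, were matched to 13 of the 25 members with a row. These windows were rich in CpG. Their median was 15 CpG, with a range of 6 (Prrx1 and Lhx9) to 28 (Prrx2), against a median of 7 over all 32851 windows, and 34.6% of all windows held at least 15. A CCAAT box was in 8 of the 13 member windows (61.5%) and in 37.4% of all windows. The Meis site TGACAG, counted on both strands, was in 5 of 13 (38.5%, against 19.2% of all windows), and the E-box CANNTG was in 6 of 13 (46.2%, against 72.3%). These shares describe 13 windows and were not tested.

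The libraries held 22159339 to 27281473 counts. The correlation of log2 levels over genes was 0.9975 to 0.9987 within a group and 0.9718 to 0.9739 between groups, and mitochondrially encoded genes took 1.99 to 2.45% of counts in WT and 3.76 to 4.46% in KO. Tmpo fell from 252 ± 2.65 to 129 ± 6.81 CPM (SD, n = 3 in each group), a sum over all LAP2 isoforms that does not resolve LAP2alpha. CPM is a gene's count scaled to 1000000 counts in its library. A gene was called where edgeR's quasi-likelihood test gave an adjusted p under 0.05. The 12 fibroblast markers all had a row, and their summed level was 5983 to 6352 CPM in WT and 21338 to 22657 CPM in KO.

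Of the 19 tested members, 13 rose in KO, 5 fell and 1 (Emx2) was not called. Called members were thus 94.7% of those tested, against 75.1% of all tested genes. The 13 that rose were 68.4% of the members, against 37.7% of all tested genes, and the 5 that fell were 26.3%, against 37.5%. Prrx2 and Meox1 passed the low-count filter only through their KO libraries, so these counts do not cover all members and were not tested as a set. In these bulk samples a change in the number of cells of a type and in RNA per cell cannot be told apart. The changes were mostly modest: the median absolute log2 fold change was 0.64, or 1.56-fold, against 0.58, or 1.5-fold, over all tested genes. A change of at least 2-fold was called for 5 members (26.3%, against 28.1% of all tested genes). These were Prrx2, Meox1, Meis1 and Gata6, which rose (16.7% of all tested genes rose by as much), and Lhx9, which fell (11.4%). Among members with a mean of 10 to 50 CPM, 11 of 12 were called (91.7%), against 79.2% of all tested genes at that level. The KO and WT library values did not overlap for 17 of the 19, against 76.8% of all tested genes, with KO above WT for 13 (42.2% of all) and below WT for 4 (34.6% of all).

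**Figure D1:**
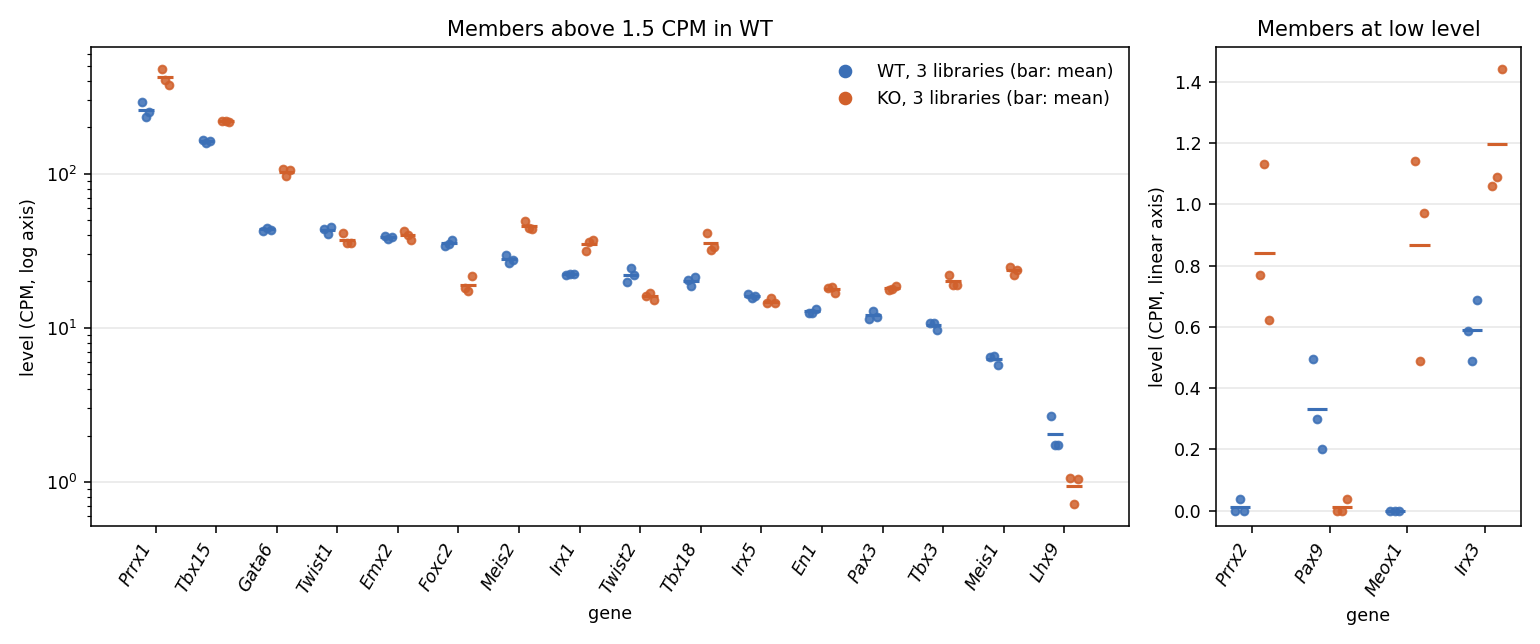
Level of 20 members in each library. The left panel shows the 16 tested members above 1.5 CPM in WT on a log axis, in order of their WT mean, and the right panel shows 4 members at low level on a linear axis; points are single libraries and bars are group means. The orange KO points lie clear of the blue WT points for Meis1, Gata6 and Foxc2, and the groups overlap for Emx2 and Twist1.

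Among T-box genes, Tbx3, Tbx15 and Tbx18 all rose. Tbx3 acts in limb and mammary development and is mutated in ulnar-mammary syndrome; the gene is at chr5:119670669-119684724 on the plus strand. Its level was 10.7, 10.7 and 9.73 CPM in the WT libraries and 22.1, 19 and 18.9 CPM in the KO libraries, so that every KO library was above every WT library. The log2 fold change was 0.88 (SE 0.0906, adjusted p by edgeR = 7.9e-06). Tbx18, which marks the anterior part of each somite and the mesenchyme of the ureter, was at 20.5, 18.7 and 21.3 CPM in WT and at 41.2, 31.9 and 33.3 CPM in KO. The groups did not overlap and KO replicate 1 was the highest, with a log2 fold change of 0.74 (SE 0.10, adjusted p by edgeR = 6.4e-05).

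Tbx15 sets the border between dorsal and ventral coat colour in mouse skin and was the most abundant member per kilobase of exon. It is at chr3:99240381-99354259 on the plus strand. Its level was 165, 159 and 164 CPM in WT and 221, 220 and 218 CPM in KO. The groups were tight and did not overlap, and the increase was 1.28-fold (log2 fold change 0.36, SE 0.0461, adjusted p by edgeR = 4.4e-05). Tbx2 and Tbx4, which act in limb and heart or hindlimb development, were below the low-count filter. Tbx2 had counts of 0, 0 and 0 in WT and 0, 3 and 1 in KO, and Tbx4 had counts of 0, 0 and 2 in WT and 0 in all 3 KO libraries, too few to compare at this depth.

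The paired-type homeobox genes Prrx1 and Prrx2, which mark limb bud and craniofacial mesenchyme, both rose. Prrx1 (chr1:163245119-163313710, minus strand) was at 292, 234 and 253 CPM in WT and at 477, 408 and 379 CPM in KO. The lowest KO library was above the highest WT library, and the increase was 1.54-fold (log2 fold change 0.62, SE 0.0977, adjusted p by edgeR = 1.9e-04). Prrx2 (chr2:30834972-30881251, plus strand) had counts of 0, 1 and 0 in WT and 21, 30 and 16 in KO, the latter a level of 0.841 ± 0.262 CPM (SD, n = 3). It was thus nearly absent from the WT counts and low in every KO library. The ratio of pooled counts, KO over WT, was 61.8, with an exact 95% Clopper-Pearson interval of 10.7 to 2476 that covers counting error only. The fitted log2 fold change of 5.45 (SE 0.686, adjusted p by edgeR = 3.6e-05) rests on the 1 WT read and was 7.39 without WT replicate 2. Alx4, a related factor of limb and skull, had counts of 0, 0 and 0 in WT and 1, 1 and 0 in KO.

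The somite genes Meox1 and Pax3 both rose, while Pax9 was lower in KO but below the low-count filter. Meox1, a homeobox factor of the somites (chr11:101877510-101894374, minus strand), had counts of 0 in all 3 WT libraries and 31, 13 and 25 in the KO libraries. No WT read was counted and every KO library had reads, at 0.866 ± 0.336 CPM (SD, n = 3). Against a floor of 3 counts over the WT group the gene was at least 21.2-fold higher in KO (adjusted p by edgeR = 1.6e-04). Pax3, a paired box factor of the dermomyotome and neural crest, was at 11.4, 12.9 and 11.8 CPM in WT and at 17.6, 17.9 and 18.7 CPM in KO. Its groups did not overlap, and it rose by a log2 fold change of 0.50 (SE 0.0793, adjusted p by edgeR = 1.9e-04).

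Pax9, a paired box factor of the sclerotome and tooth mesenchyme, lay on the other side. It was below the low-count filter, with counts of 11, 8 and 5 in WT and 0, 0 and 1 in KO. The ratio of pooled counts, WT over KO, was 26.0 (exact 95% Clopper-Pearson interval 4.24 to 1070), and without the filter edgeR gave an adjusted p of 1.9e-05. That fit gave smaller p-values for most members (for Pax3, adjusted p by edgeR = 3.3e-06, against 1.9e-04 with the filter). The Pax9 value is therefore not comparable with those of the other members. Melanocyte and Schwann cell markers, cell types of the neural crest, summed to 4.03 to 6.14 CPM in WT and 8.85 to 12.4 CPM in KO over 8 of 10 markers with a row. Only 3 of these markers passed the low-count filter, and of these 2 were called at least 2-fold higher in KO and 1 at least 2-fold lower. The part of these markers in the Pax3 result was not tested.

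En1, Emx2 and Lhx9 differed from each other. En1 marks the lineage of scar-forming dorsal dermal fibroblasts and the ventral ectoderm of the limb. It is at chr1:120602418-120607992 on the plus strand, and its level was 12.5, 12.5 and 13.3 CPM in WT and 18.2, 18.5 and 16.8 CPM in KO. The groups did not overlap, and the increase was 1.32-fold (log2 fold change 0.40, SE 0.0744, adjusted p by edgeR = 6.2e-04). Emx2, a factor of the cortex, urogenital tract and shoulder blade, was the only tested member that was not called. Its level was 39.6, 37.6 and 38.8 CPM in WT and 42.4, 40.1 and 37.4 CPM in KO, with overlapping groups and a log2 fold change of -0.03 (SE 0.0616, adjusted p by edgeR = 0.69). Lhx9, a LIM homeobox factor of the gonad and limb, was low at 2.66, 1.73 and 1.74 CPM in WT and 1.06, 0.716 and 1.05 CPM in KO. Every KO library was below every WT library, with a log2 fold change of -1.18 (SE 0.255, adjusted p by edgeR = 0.0017).

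The TALE class of homeobox genes, which includes the Irx and Meis genes, held the largest change among members above 1 CPM in both groups. Meis1 and Meis2 proteins bind DNA with Pbx and Hox proteins and mark the proximal limb. Meis1 (chr11:18879817-19018985, minus strand) was at 6.45, 6.59 and 5.76 CPM in WT and at 25.0, 22 and 23.9 CPM in KO. The 2 groups were far apart relative to their spread, and the increase was 3.58-fold (log2 fold change 1.84, SE 0.0918, adjusted p by edgeR = 3.3e-08). Meis2 (chr2:115863064-116065839, minus strand) was at 29.5, 26.4 and 27.5 CPM in WT and at 49.0, 44.7 and 43.6 CPM in KO. It also rose without overlap, by 1.56-fold (log2 fold change 0.64, SE 0.0686, adjusted p by edgeR = 1.0e-05).

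The Iroquois genes lie in a pair of clusters, with Irx1 on chromosome 13 and Irx3 and Irx5 on chromosome 8, and pattern limb, heart and skin appendages. Irx1 (chr13:71957921-71963723, minus strand) rose from 22, 22.4 and 22.3 CPM in WT to 31.4, 36.3 and 37.3 CPM in KO, without overlap (log2 fold change 0.58, SE 0.0760, adjusted p by edgeR = 5.1e-05). Irx3 was low, at 0.587, 0.490 and 0.689 CPM in WT and was at 1.06, 1.09 and 1.44 CPM in KO, also without overlap (log2 fold change 0.94, SE 0.257, adjusted p by edgeR = 0.0067). Irx5 (chr8:92357625-92376286, plus strand), in the same cluster as Irx3, went the other way. It was at 16.7, 15.7 and 16 CPM in WT and at 14.4, 15.6 and 14.4 CPM in KO, and the nearest libraries of the groups nearly met. Its log2 fold change of -0.20 (SE 0.0739, adjusted p by edgeR = 0.028) was not called with library totals in place of TMM (adjusted p = 0.14), by DESeq2 (adjusted p = 0.089) or without WT replicate 1 (adjusted p by edgeR = 0.051), WT replicate 2 (0.05), KO replicate 1 (0.077) or KO replicate 3 (0.058).

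The Twist genes both fell. Twist1 (chr12:33957671-33959829, plus strand), a regulator of mesenchymal fate and of the skull sutures, was at 44.0, 40.9 and 45.0 CPM in WT and at 41.2, 35.6 and 35.4 CPM in KO. KO replicate 1 lay above WT replicate 2, so the groups overlapped, and the decrease was 1.22-fold (log2 fold change -0.29, SE 0.0721, adjusted p by edgeR = 0.0041). Twist2 (chr1:91801461-91848028, plus strand), a factor of the dermis, was at 19.9, 24.3 and 21.9 CPM in WT and at 16.1, 16.9 and 15.2 CPM in KO. All KO libraries were below all WT libraries, with a 1.45-fold decrease (log2 fold change -0.54, SE 0.0860, adjusted p by edgeR = 2.1e-04).

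Foxc2 and Gata6 changed in opposite directions. Foxc2, a forkhead factor of mesenchyme and lymphatic vessels at chr8:121116171-121118895 on the plus strand, was at 34.0, 35.1 and 37.4 CPM in WT and at 18.1, 17.4 and 21.6 CPM in KO. The groups were well separated, and Foxc2 fell 1.97-fold (log2 fold change -0.98, SE 0.0886, adjusted p by edgeR = 2.8e-06). Gata6, a zinc finger factor of heart, gut endoderm and smooth muscle, was at 42.4, 44.6 and 43.4 CPM in WT and at 108, 96.4 and 105 CPM in KO. The groups were far apart, with a 2.25-fold increase (log2 fold change 1.17, SE 0.0607, adjusted p by edgeR = 4.3e-08). Foxf1, a factor of lung and gut mesenchyme, and Gata4, a factor of the heart, had at most 3 reads in any library. Markers of pericytes and smooth muscle summed to 25.1 to 28.6 CPM in WT and 43.6 to 47.2 CPM in KO over 6 of 7 markers with a row. Among them, chosen after their values were seen, Notch3 rose from 7.24 to 41.1 CPM and Mcam fell from 19.8 to 1.53 CPM, and their part in the Gata6 result was not tested.

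**Figure D2:**
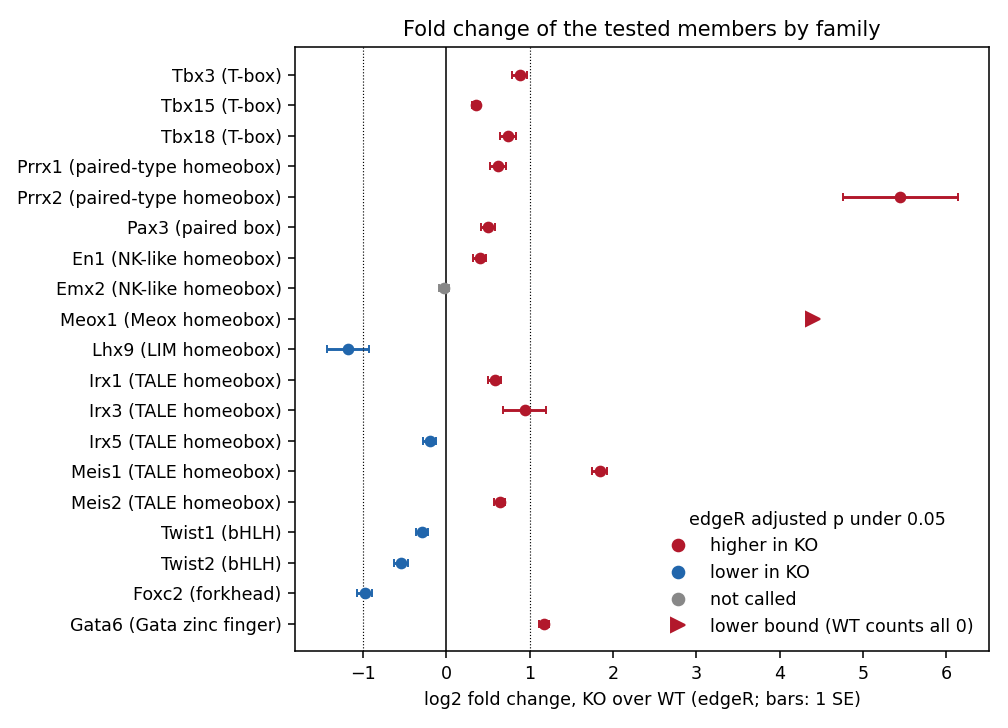
Fold change of the 19 tested members, grouped by family. The x axis is the log2 fold change of KO over WT from edgeR, points are estimates with bars of 1 SE, dotted lines mark 2-fold, and the triangle is the lower bound for Meox1, whose WT counts were all 0. T-box and Meis genes lie to the right of 0, and the Twist genes and Foxc2 lie to the left.

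Members stood in a different order of abundance in the 2 groups. Per kilobase of exon, the WT order began with Tbx15 at 43.4, Twist1 at 26.6, Prrx1 at 23.5 and Foxc2 at 13 CPM per kb, and the library values of Twist1 and Prrx1 overlapped, as did those of Foxc2 and Emx2 (12.9 CPM per kb). In KO the order began with Tbx15 at 58.6, Prrx1 at 38.1, Twist1 at 23.0 and Gata6 at 15.9 CPM per kb, and no neighbours among these 4 overlapped. Gata6 moved from rank 8 in WT (6.68 CPM per kb) to rank 4, and Foxc2 moved from rank 4 to rank 8 (6.98 CPM per kb), where it overlapped with Tbx18 (7.52) and En1 (6.80). Meis1 was at 0.595 CPM per kb in WT and 2.25 in KO, below Meis2 in both groups (2.31 and 3.8 CPM per kb).

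The relative levels of related members are given for 7 pairs. In each pair the share of the first gene in the summed CPM per kb was compared between groups with an exact two-sided permutation test, which cannot go below p = 0.1 with 3 libraries against 3, so that no pair could pass 0.05 and the shares are a description. Meis1 made up 20.5 ± 1.52% of Meis1 plus Meis2 in WT and 37.1 ± 1.30% in KO (SD, n = 3, exact p = 0.1, adjusted over the 7 pairs 0.14). Irx1 made up 62.1 ± 0.944% of Irx1 plus Irx5 in WT and 73.8 ± 1.67% in KO, and Irx3 made up 3.95 ± 0.634% of Irx3 plus Irx5 in WT and 8.41 ± 1.52% in KO (n = 3, exact p = 0.1 and adjusted p = 0.14 for each). In each of these 3 pairs all KO shares were above all WT shares. Tbx15 made up 91.0 ± 0.399% of Tbx15 plus Tbx18 in WT and 88.6 ± 1.37% in KO (n = 3, exact p = 0.1, adjusted p = 0.14). The shares of Twist1 in Twist1 plus Twist2 overlapped, at 79.3 ± 2.34% in WT and 81.9 ± 1.44% in KO (n = 3, exact p = 0.2, adjusted p = 0.2). The shares of Irx1 in Irx1 plus Irx3 also overlapped, at 97.6 ± 0.408% in WT and 96.9 ± 0.376% in KO (n = 3, exact p = 0.2, adjusted p = 0.2). Prrx1 made up 98.9 ± 0.364% of Prrx1 plus Prrx2 in KO and all but a trace in WT (n = 3, exact p = 0.1, adjusted p = 0.14), a pair in which Prrx2 passed the low-count filter only through KO. No stretch of 50 bases was shared between the transcripts of any compared pair except 1 between Irx3 and Irx5.

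**Figure D3:**
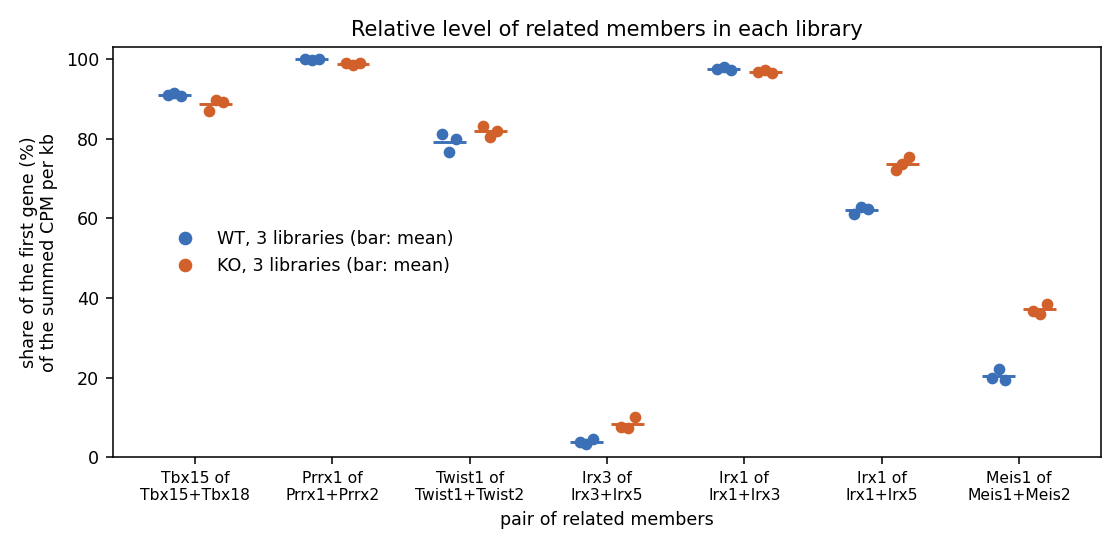
Share of the first gene of each pair in the summed level of the pair, in percent of CPM per kb of exon; points are libraries and bars are group means. The Meis1 share is 20.5% in WT and 37.1% in KO, and the shares within the Twist pair overlap.

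Several members have a noncoding transcript that starts nearby or on the opposite strand. Beside Gata6, the transcript 1010001N08Rik, which starts 503 bases away on the opposite strand, rose with it (10, 9 and 15 counts in WT, 38, 56 and 37 in KO, log2 fold change 1.74, adjusted p by edgeR = 3.1e-04). Beside Meis2, 2700033N17Rik (log2 fold change 0.64, adjusted p by edgeR = 0.026) and G630016G05Rik (log2 fold change 1.11, adjusted p by edgeR = 0.0032) rose as Meis2 did. The low transcripts 1010001N08Rik and G630016G05Rik passed the low-count filter only through their KO libraries. Gm29100, antisense to Twist2, fell with it (log2 fold change -0.82, adjusted p by edgeR = 0.0041).

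Other pairs went apart. Emx2os, antisense to Emx2 with a start 263 bases away, rose from 140, 177 and 152 counts in WT to 360, 318 and 262 in KO (log2 fold change 0.81, SE 0.111, adjusted p by edgeR = 7.2e-05), while Emx2 itself was not called. D030062O11Rik at Tbx18 fell (log2 fold change -0.54, adjusted p by edgeR = 0.042) and Tbx18 rose. Crnde, which starts 1505 bases from Irx5, was not called (log2 fold change -0.38, adjusted p by edgeR = 0.073). The sources used here do not give the strand setting of the counting, and if strand was ignored, reads of overlapping genes on opposite strands cannot be told apart. Overlapped exons made up 8.79% of the exonic length of Emx2, 20.6% of that of Tbx18 and 46.5% of that of Twist2. In the noncoding transcripts they made up 264 of 5023 exonic bases of Emx2os, 970 of 2806 of D030062O11Rik and 1477 of 4410 of Gm29100.

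Antisense transcripts below the filter lie at 6 of the members that rose, and none of them was tested. Tbx3os1, which overlaps the start of Tbx3, had counts of 0, 0 and 1 in WT and 5, 9 and 9 in KO, a ratio of 21.2 (exact 95% Clopper-Pearson interval 3.44 to 874). Gm16141 at Meis1 had 1, 3 and 2 counts in WT and 24, 8 and 17 in KO. Gm11551 within Meox1 had none in WT and 5, 2 and 3 in KO, at least 3.07-fold higher against the floor of 3 counts over the group. The other 3 had few reads in both groups: summed over the libraries, Gm43120 at Tbx15 had 8 counts in WT and 8 in KO, Gm20471 at Prrx1 had 1 and 4, and Irx3os at Irx3 had 1 and 1.

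**Figure D4:**
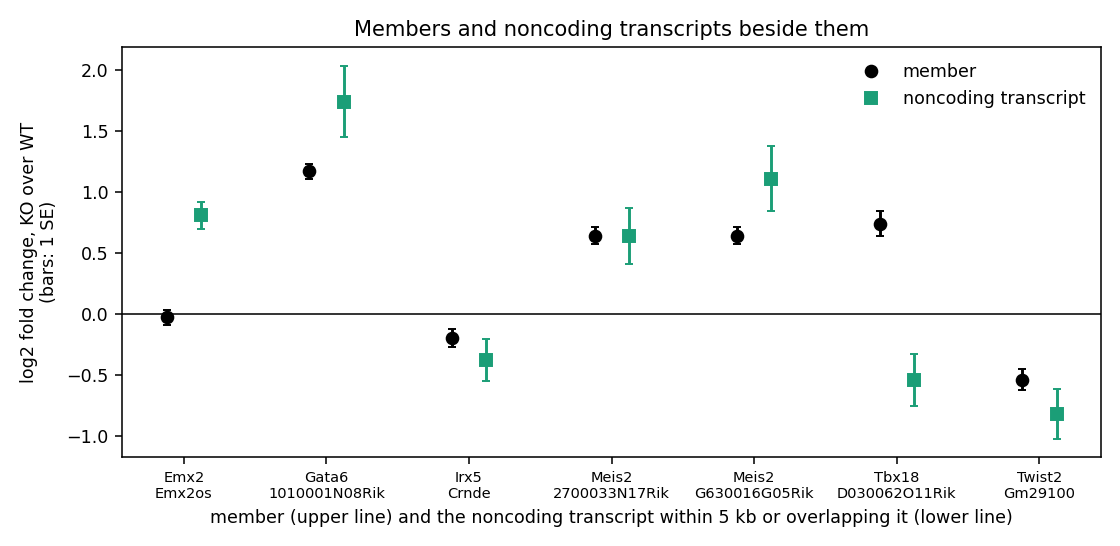
Log2 fold change (KO over WT, bars of 1 SE) of members, as black circles, and of the tested noncoding transcripts within 5 kb of or overlapping them, as green squares. Both values are above 0 at Gata6 and Meis2 and both are below 0 at Twist2 and Irx5, and they lie apart at Emx2 and Tbx18.

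The nearest tested protein-coding genes on both sides of the tested members made 37 pairs, with Irx3 and Irx5 counted once. Both genes were called in 28 pairs (75.7%), in the same direction in 13 and in opposite directions in 15. Over all 13150 pairs of a tested protein-coding gene and its flanking gene, both were called in 62.6%, and of these 57.6% went in the same direction, against 46.4% for the members. Without Prrx2 and Meox1, which passed the filter only through KO, 12 pairs went in the same direction and 12 in opposite directions. These shares were not tested. Examples, chosen after their values were seen, are Foxl1, a forkhead gene 9.0 kb from Foxc2, which rose (log2 fold change 0.64) where Foxc2 fell, and Irx2, 665.1 kb from Irx1, which fell (log2 fold change -0.82) where Irx1 rose. Ptges, which encodes a prostaglandin E synthase and lies 8.2 kb from Prrx2, rose with it (log2 fold change 3.21). Within 5 kb of a member or overlapping it, Wars2 at Tbx15 (log2 fold change -0.31), Asb6 at Prrx2 (-0.26), 2310009B15Rik at Lhx9 (-0.58) and Mthfsd at Foxf1 (-0.20) fell, and Ext2 at Alx4 was not called (-0.01).

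Other patterning genes, cofactors and signals were read from 7 lists, of which 65 genes were tested. Of these, 34 rose, 16 fell and 15 were not called, so that 76.9% were called, against 75.1% of all tested genes. Their median log2 fold change was 0.49, against 0.58 for the members and 0.01 over all tested genes. Some genes of these lists passed the low-count filter only through the group where they were higher, so the counts do not cover all listed genes. Among 16 partners and cofactors, 8 rose and 4 fell. Ldb2, a LIM-domain-binding cofactor, rose from 13.2 ± 0.452 to 67.0 ± 4.19 CPM (n = 3, adjusted p by edgeR = 1.4e-09), and Zfpm2, a partner of Gata factors, rose from 56.8 ± 2.14 to 91.1 ± 2.59 CPM (n = 3, adjusted p by edgeR = 1.9e-06). Eya1, a partner of homeobox factors of the Six2 class, fell from 3.59 ± 0.40 to 0.166 ± 0.119 CPM, while its relative Eya4 rose from 10.1 ± 0.329 to 30.8 ± 3.41 CPM (n = 3, adjusted p by edgeR = 7.2e-07 and 1.2e-07). Eya1 had KO counts of 1, 5 and 7 and passed the low-count filter only through its WT libraries. Some TALE partners of Meis proteins were looked at after their values were seen: Pbx2, Pbx3, Meis3 and Pknox2 rose, with log2 fold changes of 0.39 to 0.60, Pbx4 fell, and Pknox1, Tgif1 and Tgif2 were not called.

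In the members' own families, 12 other homeobox and paired genes were tested, of which 4 rose and 3 fell. The tendon factor Mkx rose from 6.47 ± 0.576 to 16.4 ± 0.991 CPM (n = 3, adjusted p by edgeR = 6.0e-07). Lhx6, a LIM homeobox gene of the jaw mesenchyme, rose with a log2 fold change of 1.36, and the eye factor Pax6 fell with a log2 fold change of -1.60. Of 19 other forkhead genes 11 rose and 5 fell; Foxo3, Foxo1 and Foxo4, which are held out of the nucleus by insulin signalling, rose with log2 fold changes of 1.74, 1.44 and 1.28, and Foxk2 fell with -0.73. All 3 tested Gata and Trps1 genes rose: Gata3 from 2.60 ± 0.483 to 16.9 ± 0.973 CPM (n = 3), Gata2 with a log2 fold change of 1.06 and Trps1 with 0.79. The 1 other T-box gene tested, Mga, was not called.

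E proteins are the partners of Twist. Of the 5 tested bHLH and partner genes, the E-protein genes Tcf4 and Tcf12 rose, from 44.5 ± 3.00 to 155 ± 10.7 CPM and from 174 ± 5.63 to 299 ± 7.54 CPM (n = 3, adjusted p by edgeR = 7.8e-09 and 3.9e-07), and the third, Tcf3, was not called (78.1 ± 2.27 and 76.8 ± 2.45 CPM). Arnt, a PAS-domain partner of the Sim proteins, rose with a log2 fold change of 1.43, and Arnt2 fell with -0.45.

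Of 9 tested limb and skin signals, 5 rose and 3 fell. Gli2, an effector of hedgehog signalling, rose from 0.286 ± 0.104 to 4.74 ± 0.390 CPM (n = 3, adjusted p by edgeR = 9.5e-08). Its WT counts were 5, 6 and 10, and Gli2 passed the low-count filter only through its KO libraries. Grem1, a secreted antagonist of BMP ligands, rose from 42.2 ± 3.65 to 149 ± 10.9 CPM, and the ligand gene Bmp4 fell from 5.91 ± 0.125 to 1.92 ± 0.0926 CPM (n = 3, adjusted p by edgeR = 1.5e-08 and 6.2e-07). Rspo2, an enhancer of Wnt signalling, rose with a log2 fold change of 2.29.

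**Figure D5:**
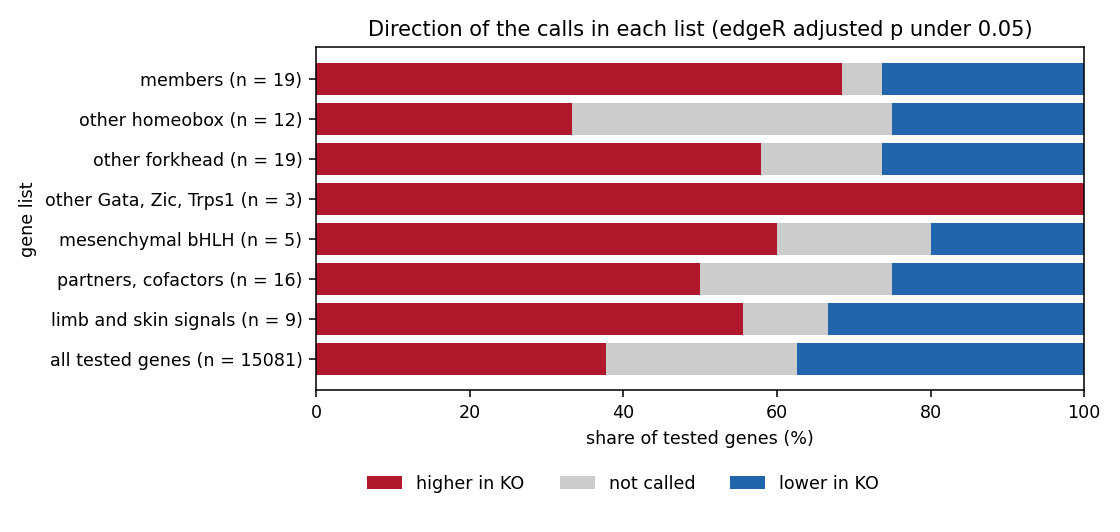
Share of tested genes that were called higher (red), called lower (blue) or not called (grey) in KO, in percent, for the members, 6 lists of related genes and all 15081 tested genes. The members have 68.4% higher and 26.3% lower, and all tested genes have 37.7% higher and 37.5% lower.

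Markers of other cell types were low beside the fibroblast markers. Keratinocyte markers summed to 6.82 to 8.62 CPM in WT and 4.90 to 6.49 CPM in KO over 6 of 8 markers with a row, with 2 and 4 reads in all for Krt14. Endothelial markers summed to 1.30 to 1.47 and 0.233 to 0.88 CPM (5 of 6), leukocyte markers to 0.812 to 1.01 and 2.71 to 4.31 CPM (3 of 6), skeletal muscle markers to 0.767 to 0.852 and 3.01 to 3.32 CPM (2 of 6) and adipocyte markers to 6.49 to 7.22 and 2.16 to 2.41 CPM (3 of 5). Ptprc, the pan-leukocyte marker, had 1 read in WT and 0 in KO. Of the 2 other leukocyte markers, which were tested, 1 was called at least 2-fold higher in KO and 1 was not called. Both tested keratinocyte markers were called lower in KO. Of the 12 fibroblast markers 10 rose, Thy1 fell and 1 was below the low-count filter. The part of this fibroblast marker difference in the members' changes was not tested.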

How the data were processed

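Polyadenylated RNA of 3 WT and 3 KO dermal fibroblast samples was made into directional libraries and sequenced, per the labels' protocols. The authors deposited raw counts per Ensembl gene, 1 file per library, made with STAR 2.7.10b on GRCm38, per the submitters' processing notes. The sources used here do not give the counting program, its annotation or its strand setting. Symbols, positions and exonic lengths came from GENCODE M21 (28230 of 28293 identifiers matched) and promoter windows from RefSeq.

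The comparison of KO with WT was fitted over all genes in edgeR 4.0.16 (R 4.3.3), with TMM, filterByExpr, the quasi-likelihood test and Benjamini-Hochberg adjustment. The SE is the absolute log2 fold change over the square root of F. Data were simulated from these counts (14812 genes), with 48 to 50 genes changed at each fold and the rest unchanged. In these data edgeR recovered 22% of genes changed 1.25-fold, 74% changed 1.5-fold and 83.3% changed 2-fold, and 10.67% of its calls were false. The share of genes changed was far below the 75.1% called in KO against WT, so these rates may not hold for the real comparison. Intervals and floors (3 counts over a group) cover counting error only.

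Named genes are Tmpo, the members, up to 4 called genes per list with at least 1 CPM and the smallest p, and tested genes overlapping or within 5 kb of a member. Some genes that this rule names are not reported here. The members and lists were chosen with earlier results of these data known. Alternatives were DESeq2 1.42.0 size factors and Wald test, library totals, other filters, limma-voom (limma 3.58.1), a replicate block, a test against 1.5-fold and leaving out each library. The fit assumed no pairing of replicate numbers.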

Additional observations from a re-analysis of the deposited data

How the results depend on the processing

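Of 264 log2 fold changes of members refitted under 14 alternatives, 6 of them the omission of 1 library, 245 kept their direction and their side of the threshold, 17 were no longer called (11 of them under the test against 1.5-fold and the others all of Irx5) and 2 changed sign, both of Emx2. Leaving out each library in turn gave 10791 to 11441 called genes, 17 to 18 called members, 5 to 6 members of at least 2-fold and 50 to 52 called genes of the other lists, against 11330, 18, 5 and 50. With at least 1 CPM in 3 libraries, which drops Prrx2 and Meox1 from the test, 3 members reached 2-fold. A test against a 1.5-fold change left 5621 genes (37.3%), 7 members and 29 genes of the other lists; the members were Tbx3, Prrx2, Meox1, Meis1 and Gata6, higher, and Lhx9 and Foxc2, lower. The log2 fold change of Emx2 was 0.05 with library totals, and leaving out each library gave -0.07 to 0.00 (0.00 without KO replicate 3). Library totals moved the median log2 fold change of all genes by 0.077. With the replicate number as a block, 11697 genes, 18 members and 51 genes of the other lists were called. Same-numbered samples deviated together with correlations of 0.147, -0.115 and 0.159, and samples of unlike number with correlations from -0.34 to 0.268. KO replicate 1 correlated best with its own number and KO replicates 2 and 3 did not. With so few libraries a group, these values cannot show whether the numbers pair the samples. Low counts limit Prrx2, Meox1, Pax9 and the other members under the filter.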
